A study of Mus musculus with 15 samples.

Results

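Granins and the genes that process prohormones were followed through 15 RNA-seq libraries of mouse colonic crypts. The set is 10 of the 32939 genes in the deposited count table, taken by symbol. It holds the granin family genes Chga, Chgb, Scg2, Scg3 and Vgf, and the granule protein gene Resp18, which was listed with them. It also holds the convertase Pcsk1, the carboxypeptidase Cpe, the convertase chaperone Scg5 and the convertase inhibitor Pcsk1n. Each symbol matched 1 row, and all 10 passed the filter on low counts. The libraries fell into 3 groups of 5, all from wild-type mice that carried an AAV vector with a short hairpin RNA. NL-shGFP had a normal diet, a normal liver and the hairpin named for GFP. FL-shGFP had the CDAA diet, a fatty liver and the same hairpin. FL-shAlpl had the CDAA diet, a fatty liver and the hairpin named for Alpl, the gene of tissue-nonspecific alkaline phosphatase. Diet and liver state changed together, no group combined the Alpl hairpin with a normal liver, and the labels give neither the vector's target tissue nor the animals' sex or age.

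Hormone-producing cells of the gut store peptides in dense-core granules. Chromogranins and secretogranins pack the granule, Pcsk1 cuts prohormones at pairs of basic residues, and Cpe trims the basic residues that the cut leaves behind. In the colon these cells are scattered single enteroendocrine cells that make peptides such as PYY and the proglucagon products, and chromogranin A has long served as their marker.

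The libraries held 33.3 to 58.6 M counts each, and mitochondrially encoded genes took 28.0 to 37.5% of them in NL-shGFP, whereas FL-shGFP had 13.7 to 21.5% and FL-shAlpl 14.8 to 24.3%. Alpl had 0 to 2 counts per NL-shGFP library, 14 to 25 per FL-shGFP library and 0 to 6 per FL-shAlpl library. Crypt epithelium was present throughout, with Epcam between 976 and 1976 CPM (counts scaled to TMM-adjusted library totals) and the goblet cell mucin Muc2 between 6495 and 21326 CPM, while Lgr5 was at 0 in 1 library. Inside NL-shGFP, replicates 3 and 4 and replicates 1 and 2 were unusually close, with a median chi-square per gene of 0.773 and 1.28 (0.455 if alike) against 1.95 to 6.32 in the other 8 pairs of that group and 2.65 to 18.2 in the 20 pairs of the fatty liver groups. Neither pair met the criterion for a repeat of 1 library, so all 15 libraries were kept as separate samples, and results with the close pairs summed are given where they change a call. Nothing in the labels states that each replicate is its own animal, so p-values may measure only the spread between these samples.

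Chgb and Chga were among the abundant transcripts of the crypts, and the other members covered a wide range below them. By mean CPM over all libraries Chgb stood at percentile 96.8 of the 17404 tested genes, Chga at 92.2, Cpe at 77.4 and Pcsk1 at 64.0. Resp18, Pcsk1n, Scg5, Scg3 and Scg2 lay between percentiles 35.3 and 25.1, and Vgf at 10.2. Levels of different genes were compared on the deposited FPKM scale, which divides by transcript length. In NL-shGFP the median FPKM was 69.5 for Chgb, 27.2 for Chga, 4.99 for Pcsk1, 4.79 for Cpe and 1.81 for Resp18, followed by Pcsk1n at 0.663, Scg3 at 0.496, Scg5 at 0.320, Scg2 at 0.0964 and Vgf at 0.0695. The ranges of neighbours in that order overlapped except between Chga and Pcsk1 and between Scg5 and Scg2. In FL-shGFP Cpe stood next after Chga, with a median of 37.8 FPKM, its range overlapping that of Chga (median 41.1) and not that of Resp18 (3.28), the next lower gene. In FL-shAlpl Cpe again followed Chga, at 6.78 FPKM, below the whole range of Chga (median 36.1) and overlapping Resp18 (2.88).

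Cpe rose in fatty liver crypts and fell in the group with the Alpl hairpin into a range that overlapped the normal diet libraries, while Chga, Chgb, Pcsk1, Scg3, Scg5, Resp18 and Pcsk1n passed the edgeR test in none of the 3 comparisons. Scg2 rose in FL-shGFP, and Vgf fell in FL-shAlpl against FL-shGFP by a narrow call. Between FL-shGFP and NL-shGFP 2 of the 10 members rose and 0 fell, where 25.1% of all tested genes rose and 21.6% fell (46.7% together). Between FL-shAlpl and FL-shGFP 0 of 10 rose and 2 fell, where 18.0% of all tested genes rose and 17.9% fell (36.0% together). Between FL-shAlpl and NL-shGFP edgeR called 0 of 10, where 9.31% of all tested genes rose and 8.12% fell (17.4% together), with 2 members (Scg2 and Pcsk1) at an unadjusted p below 0.05, and DESeq2 called those same 2. A call is an edgeR quasi-likelihood adjusted p below 0.05 over all tested genes, with n = 5 libraries in each group, and a miss of that threshold does not show equal levels. The first 2 comparisons share the FL-shGFP libraries, so a rise in one and a fall in the other rest in part on the same 5 values.

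**Figure D1:**
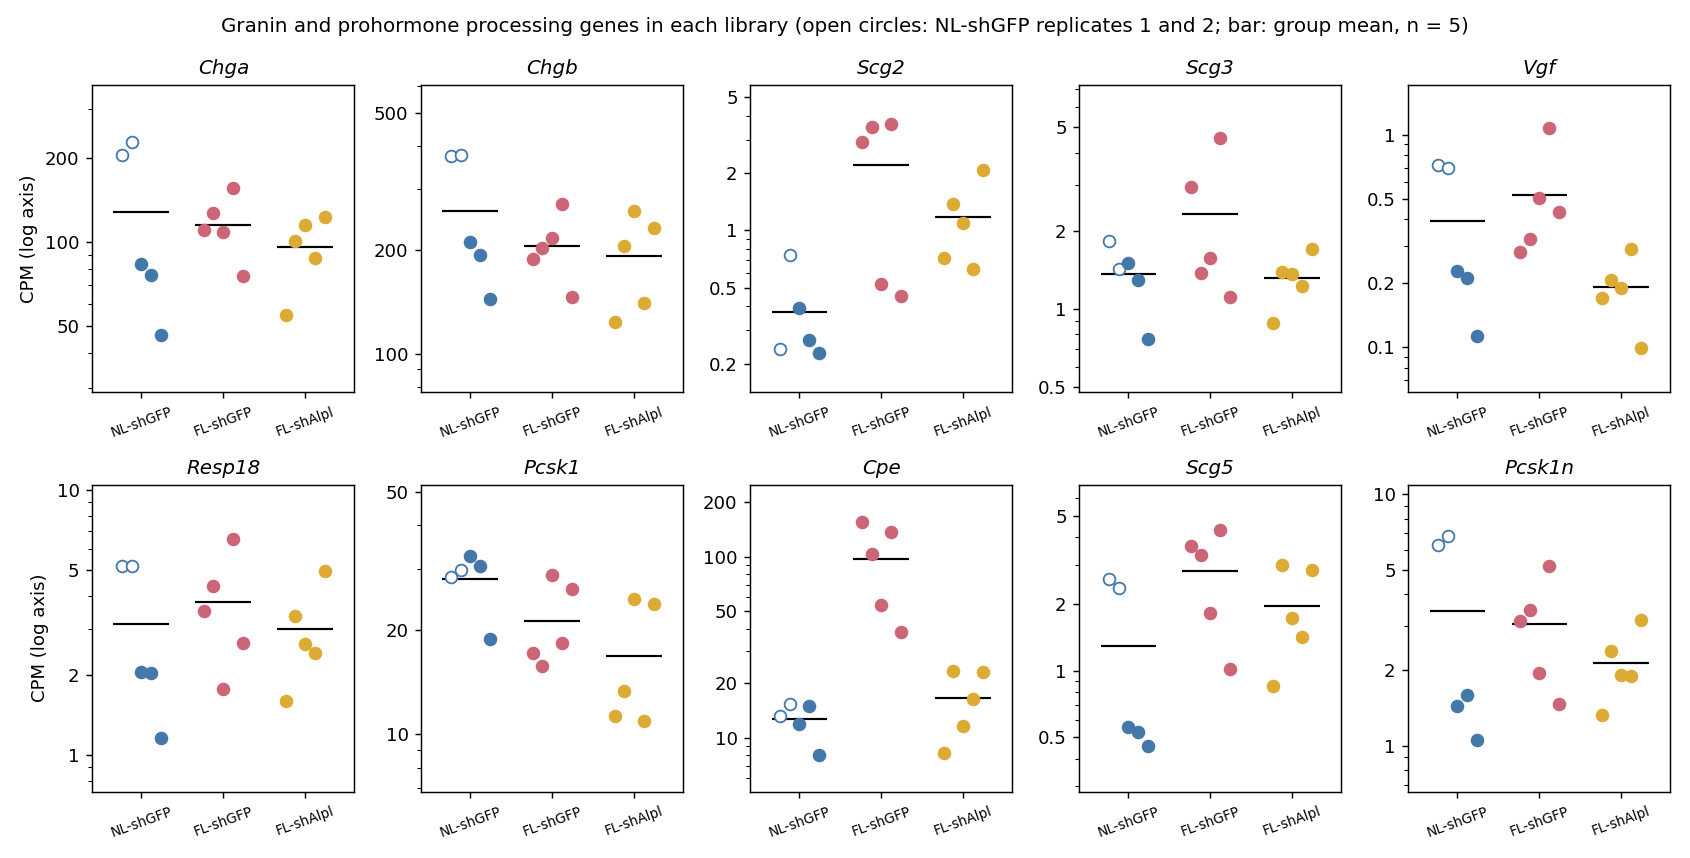
Level of each of the 10 genes in each library, as CPM normalised by TMM on log axes, with 1 point per library and a bar at the mean of each group of 5; open circles mark NL-shGFP replicates 1 and 2. All 5 FL-shGFP points of Cpe lie above the other groups, from 38.4 to 157 CPM, whereas the groups overlap in the other 9 panels.

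The genes listed as granins are given first. Chga, chromogranin A, had 204, 229, 83.1, 75.9 and 46.3 CPM in NL-shGFP replicates 1 to 5. It had 110, 127, 109, 156 and 75.4 CPM in FL-shGFP and 54.7, 101, 115, 87.6 and 123 CPM in FL-shAlpl. The 3 groups overlapped, and NL-shGFP held both the highest and the lowest values. The log2 fold change was -0.15 ± 0.37 (SE) in FL-shGFP against NL-shGFP (edgeR adjusted p = 0.770, 95% interval -0.94 to 0.65), and -0.26 ± 0.37 in FL-shAlpl against FL-shGFP (edgeR adjusted p = 0.610, interval -1.06 to 0.53).

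Chgb, chromogranin B, had 374, 377, 211, 193 and 144 CPM in NL-shGFP replicates 1 to 5. It had 188, 203, 217, 272 and 146 CPM in FL-shGFP and 124, 206, 259, 140 and 231 CPM in FL-shAlpl. Replicates 1 and 2 of NL-shGFP again stood highest, and the other 13 libraries lay together between 124 and 272 CPM. The log2 fold change was -0.34 ± 0.27 in FL-shGFP against NL-shGFP (edgeR adjusted p = 0.321) and -0.10 ± 0.27 in FL-shAlpl against FL-shGFP (edgeR adjusted p = 0.807).

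Scg2, secretogranin II, was scarce and was the granin gene that rose with the fatty liver diet. It had 0.240, 0.748, 0.392, 0.265 and 0.227 CPM in NL-shGFP, which is 8 to 30 counts per library. It had 2.91, 3.51, 0.524, 3.63 and 0.452 CPM in FL-shGFP, and 0.714, 1.39, 1.10, 0.625 and 2.08 CPM in FL-shAlpl. FL-shGFP fell into 3 libraries near 3 CPM and replicates 3 and 5 near 0.5 CPM, and those last 2 lay inside the NL-shGFP range. Replicates 3 and 5 also differed from the rest of FL-shGFP in marker sums, given with Pcsk1 below. The rise in FL-shGFP was 2.53 ± 0.61 on the log2 scale (edgeR adjusted p = 0.00364), from 0.375 ± 0.219 CPM (SD) to 2.20 ± 1.59 CPM. FL-shAlpl did not pass against FL-shGFP (-0.90 ± 0.56, edgeR adjusted p = 0.220). Against NL-shGFP its log2 fold change was 1.63 ± 0.60 (edgeR adjusted p = 0.0718), and DESeq2 called it (1.65, adjusted p = 0.0272).

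Scg3, secretogranin III, had 1.83, 1.42, 1.504, 1.30 and 0.768 CPM in NL-shGFP. It had 2.95, 1.38, 1.57, 4.55 and 1.11 CPM in FL-shGFP and 0.884, 1.39, 1.37, 1.23 and 1.71 CPM in FL-shAlpl. FL-shGFP replicates 1 and 4 stood above every other library, and the remaining 3 lay inside the range of the other groups. Neither comparison passed, with 0.76 ± 0.36 in FL-shGFP against NL-shGFP (edgeR adjusted p = 0.0991) and -0.81 ± 0.36 in FL-shAlpl against FL-shGFP (edgeR adjusted p = 0.0910). Without FL-shGFP replicate 5, the lowest library of its group, both passed edgeR, at 0.93 (adjusted p = 0.0385) and -0.98 (adjusted p = 0.0353).

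Vgf, the gene of a granin-like neuropeptide precursor, was the least abundant member, with 4 to 36 counts per library. It had 0.720, 0.698, 0.229, 0.212 and 0.114 CPM in NL-shGFP, with 0.280, 0.324, 0.504, 1.07 and 0.433 CPM in FL-shGFP. FL-shAlpl had 0.170, 0.208, 0.190, 0.292 and 0.0989 CPM. FL-shGFP and FL-shAlpl overlapped only through FL-shGFP replicate 1 and FL-shAlpl replicate 4. The fall in FL-shAlpl against FL-shGFP was -1.41 ± 0.53 (edgeR adjusted p = 0.0473). It was lost without any 1 of 8 libraries, FL-shGFP replicates 3, 4 and 5 and each FL-shAlpl replicate, with edgeR adjusted p from 0.0510 to 0.164. The weakest value, -0.99, came without FL-shGFP replicate 4, whose 1.07 CPM was the highest of all 15 libraries. Most small counts in the table were even, so these counts may stand for fewer molecules than they show.

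Resp18, the gene of a secretory granule protein listed here with the granins, had 5.16, 5.16, 2.06, 2.04 and 1.17 CPM in NL-shGFP. It had 3.51, 4.34, 1.77, 6.55 and 2.66 CPM in FL-shGFP and 1.599, 3.34, 2.62, 2.44 and 4.95 CPM in FL-shAlpl. The groups overlapped across most of their ranges, and no comparison passed edgeR, with adjusted p from 0.573 to 0.940. The antisense gene Gm28902, which overlaps Resp18 in the GENCODE annotation, had 0 counts in every library.

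Of the convertase and the carboxypeptidase, Cpe moved and Pcsk1 did not pass. Cpe, which removes the basic residues left by the convertases, had 13.1, 15.4, 11.97, 14.96 and 8.05 CPM in NL-shGFP. In FL-shGFP it had 157, 103, 54.0, 137 and 38.4 CPM, and in FL-shAlpl 8.26, 23.5, 11.6, 16.4 and 23.1 CPM. Every FL-shGFP library lay above every library of the other groups, and FL-shAlpl overlapped NL-shGFP. The mean went from 12.7 ± 2.94 CPM in NL-shGFP to 97.9 ± 51.2 CPM in FL-shGFP, a 7.70-fold rise (2.95 ± 0.39 on the log2 scale, edgeR adjusted p = 6.86e-05). It was 16.6 ± 6.78 CPM in FL-shAlpl, a 5.91-fold fall against FL-shGFP (-2.56 ± 0.38, edgeR adjusted p = 0.000356). Cpe was the single member whose CPM did not overlap between the groups in these comparisons. Among all tested genes 18.1% lay wholly above and 16.2% wholly below in FL-shGFP against NL-shGFP (34.2% together), and 7.63% and 9.29% in FL-shAlpl against FL-shGFP (16.9% together). In FL-shAlpl against NL-shGFP all 10 members overlapped, where 7.54% of tested genes lay wholly above and 7.01% wholly below (14.6% together). FL-shAlpl against NL-shGFP did not pass (0.38 ± 0.37, edgeR adjusted p = 0.522), and the 95% interval of that difference ran from -0.40 to 1.17 on the log2 scale.

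Cpe moved together with the marker sums of several other cell types. The marker counts below stand beside 25.1% of all tested genes higher in FL-shGFP against NL-shGFP, and 17.9% lower in FL-shAlpl against FL-shGFP. The summed CPM of 8 surface colonocyte markers ran from 781 to 2175 in NL-shGFP. With the CDAA diet it ran from 3675 to 10117 in FL-shGFP and from 1367 to 3587 in FL-shAlpl. Of the 8 markers, 7 were higher in the first comparison and 6 were lower in the second. The sum of 5 T cell markers ran from 5.43 to 19.8, 30.6 to 92.6 and 4.67 to 10.6 CPM, all 5 higher and then all 5 lower. The sum of 12 enteric neuron markers ran from 8.22 to 11.1, 11.8 to 17.6 and 3.84 to 8.46 CPM. Of the 12, 5 were tested, with 2 of those higher and then 3 lower. Ret gave most of the counts of this list (4464 over all libraries, then Chat with 742), so the sum mostly follows Ret. The neuronal nitric oxide synthase gene Nos1 was at 0 in every NL-shGFP library, whereas Elavl3 had 39 of its 97 counts there. In these 3 lists, and in that of smooth muscle, every FL-shGFP library lay above all other libraries, as it did for Cpe. Smooth muscle markers summed to 1.35 to 3.18, 4.82 to 21.0 and 1.94 to 3.66 CPM, and enteric glia markers to at most 2.05 CPM in any library. B and plasma cell markers summed to at most 21.2 CPM in NL-shGFP, then 100.2 to 377 and 14.97 to 130 CPM, myeloid markers to 103 to 318, 271 to 1010 and 79.6 to 285 CPM, fibroblast markers to 8.78 to 58.9, 55.1 to 354 and 20.6 to 313 CPM, and endothelial markers to 3.21 to 4.76, 6.07 to 9.74 and 4.57 to 6.78 CPM. The 6 stem and cycling cell markers went the other way, at 598 to 770, 68.2 to 470 and 233 to 974 CPM. The same sums stand beside the calls for Scg2 and Vgf. The part of these cells in the levels of Cpe or of the other members was not tested, and in bulk crypts fewer cells of a type and less RNA per cell cannot be told apart.

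**Figure D2:**
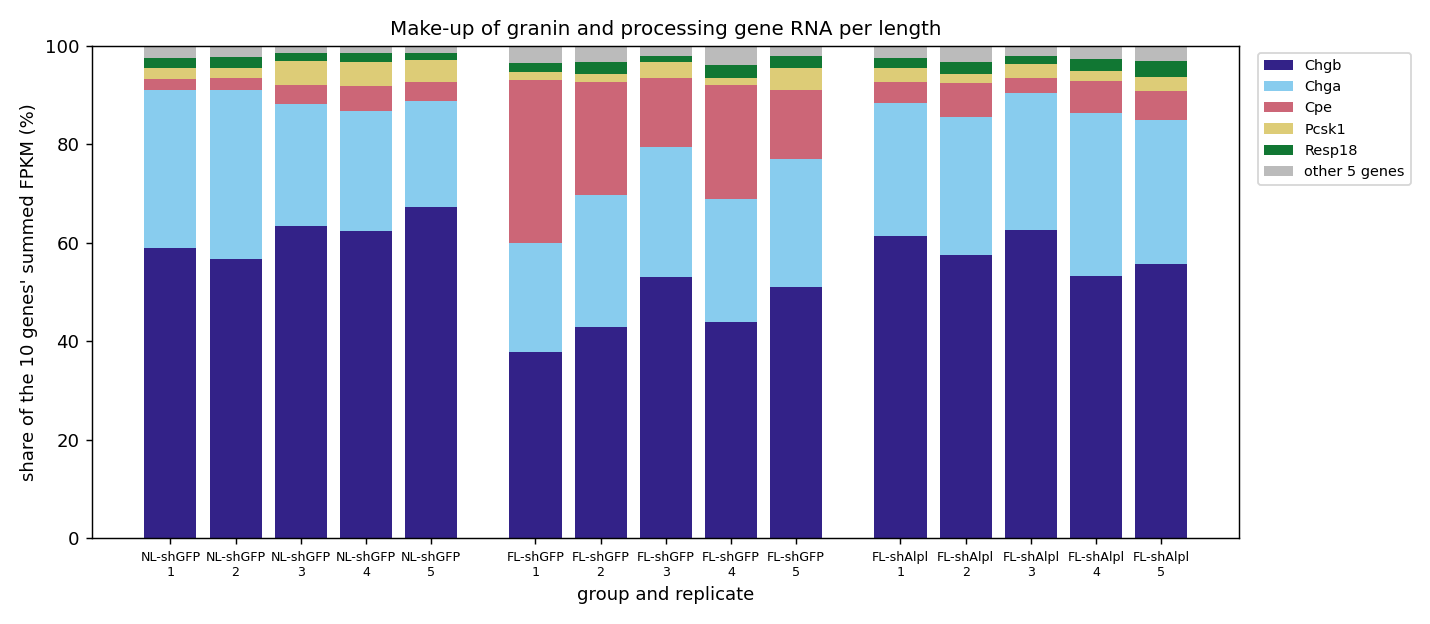
Share of the summed FPKM of the 10 genes in each library, in percent, for the 5 most abundant and the other 5 together, with 1 stacked bar per library and the libraries ordered by group. Cpe takes 13.9 to 33.2% in FL-shGFP against at most 6.90% in the other libraries, and Chgb takes the largest share in all 15.

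Pcsk1, the prohormone convertase of colonic L cells, had 28.4, 29.7, 32.7, 30.6 and 18.8 CPM in NL-shGFP. It had 17.2, 15.7, 28.7, 18.3 and 26.2 CPM in FL-shGFP and 11.3, 13.3, 24.6, 10.9 and 23.8 CPM in FL-shAlpl. In FL-shGFP replicates 3 and 5 were the highest for Pcsk1, the same 2 libraries that were lowest for Cpe. They also stood apart in marker sums. Surface colonocyte markers summed to 6139 and 3675 CPM there, against 9380 to 10117 CPM in replicates 1, 2 and 4. Stem and cycling cell markers summed to 400 and 470 CPM, against 68.2 to 198 CPM. The part of this difference in the levels of Pcsk1 and Cpe was not tested. The log2 fold change of Pcsk1 was -0.40 ± 0.25 in FL-shGFP against NL-shGFP (edgeR adjusted p = 0.201) and -0.34 ± 0.25 in FL-shAlpl against FL-shGFP (edgeR adjusted p = 0.311). FL-shAlpl against NL-shGFP lay just outside the threshold, at -0.74 ± 0.25 (edgeR adjusted p = 0.0555), with means of 16.8 ± 6.83 against 28.0 ± 5.39 CPM. It passed without NL-shGFP replicate 5, FL-shAlpl replicate 3 or FL-shAlpl replicate 5.

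The chaperone and the inhibitor of the convertases did not pass in any comparison. Scg5, the chaperone of the convertase Pcsk2, had 2.58, 2.37, 0.556, 0.530 and 0.455 CPM in NL-shGFP. It had 3.66, 3.33, 1.81, 4.31 and 1.02 CPM in FL-shGFP and 0.850, 2.996, 1.73, 1.42 and 2.84 CPM in FL-shAlpl. NL-shGFP replicates 3 to 5 lay below all other 12 libraries, and replicates 1 and 2 lay among them. The rise in mean from 1.30 ± 1.08 to 2.83 ± 1.37 CPM gave 1.11 ± 0.55 (edgeR adjusted p = 0.104), which passed without NL-shGFP replicate 1 (1.51, edgeR adjusted p = 0.0446). Pcsk2 itself was below the filter, with 0 counts over the 5 NL-shGFP libraries, 15 over FL-shGFP and 7 over FL-shAlpl.

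Pcsk1n, the gene of proSAAS, the inhibitor of Pcsk1, had 6.27, 6.83, 1.44, 1.59 and 1.05 CPM in NL-shGFP. It had 3.15, 3.47, 1.96, 5.18 and 1.47 CPM in FL-shGFP and 1.33, 2.39, 1.92, 1.90 and 3.17 CPM in FL-shAlpl. As for Scg5, NL-shGFP replicates 1 and 2 stood apart from replicates 3 to 5, and here they were the 2 highest of all 15 libraries. No comparison passed edgeR, with adjusted p from 0.383 to 0.788.

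**Figure D3:**
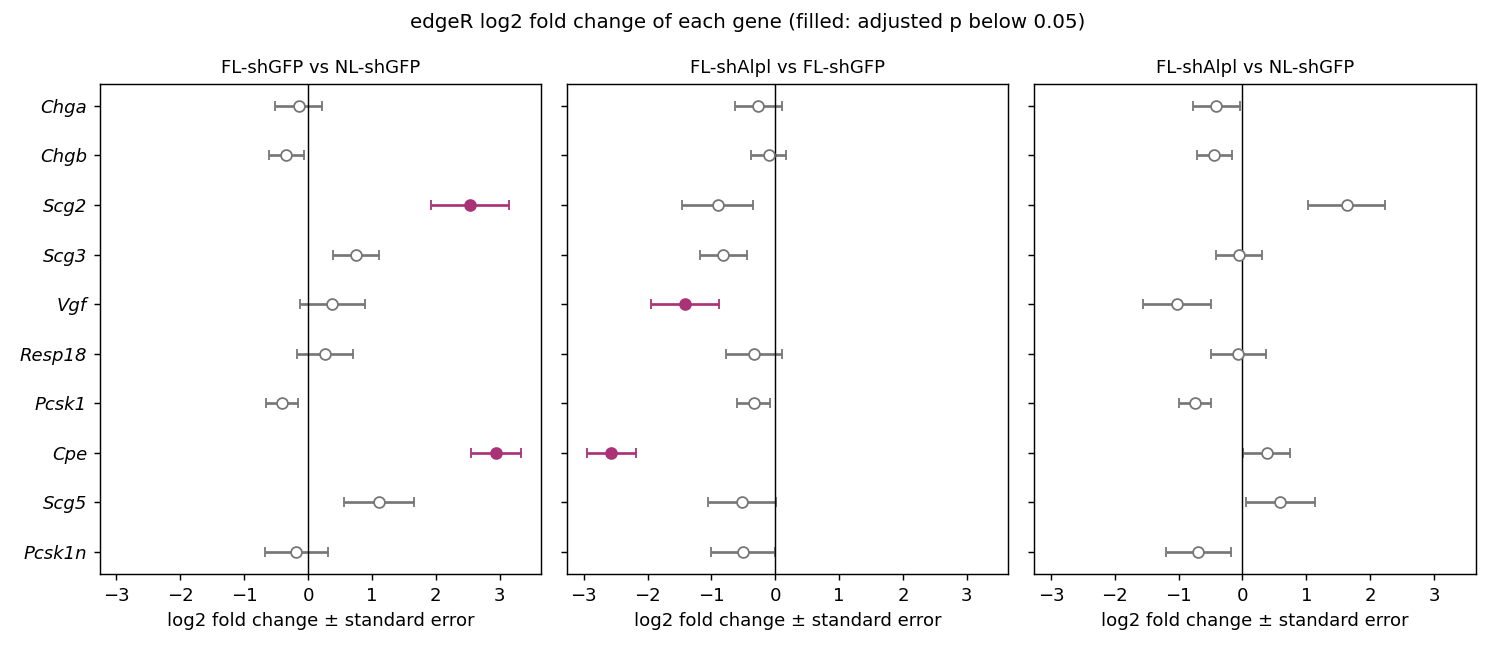
Log2 fold change of each gene in the 3 comparisons, with bars for the standard error and filled points for an edgeR adjusted p below 0.05. Filled points are Scg2 (2.53) and Cpe (2.95) in the left panel and Vgf (-1.41) and Cpe (-2.56) in the middle one, and the right panel has none.

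Taken as a set, the members' median log2 fold change was 0.32 in FL-shGFP against NL-shGFP, -0.51 in FL-shAlpl against FL-shGFP and -0.24 in FL-shAlpl against NL-shGFP. Over all tested genes the medians were -0.0016, -0.0037 and 0.052. Among the genes listed as granins, Resp18 included, 1 of 6 passed in the first comparison (Scg2) and 1 of 6 in the second (Vgf). Of all tested genes 46.7% and 36.0% passed in these comparisons. Cpe was the only one of the pair of enzymes to pass, and Scg5 and Pcsk1n did not.

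The ratio of Cpe to Chga RNA followed Cpe and restates its difference between the groups. Whether the RNA of Cpe and Chga came from the same cells was not tested. Per library, Cpe FPKM divided by Chga FPKM was 0.0677, 0.0710, 0.152, 0.208 and 0.184 in NL-shGFP. It was 1.502, 0.861, 0.526, 0.923 and 0.538 in FL-shGFP, and FL-shAlpl had 0.160, 0.246, 0.106, 0.197 and 0.199. The FL-shGFP ratios lay above all others, and the lowest NL-shGFP ratios were those of replicates 1 and 2, where Chga was highest. Pcsk1 FPKM divided by Chga FPKM overlapped between all groups, at 0.0638 to 0.200 in NL-shGFP, from 0.0575 to 0.171 among FL-shGFP libraries and from 0.0614 to 0.105 among FL-shAlpl libraries.

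Within groups, 5 members varied together from library to library. With each log2 CPM value taken relative to its group mean over the 15 libraries, the 10 pairs among Chga, Chgb, Resp18, Scg5 and Pcsk1n had Pearson's r of 0.81 to 0.96, with 0.95 between Chga and Chgb and 0.96 between Scg5 and Pcsk1n. These 5 were picked after the values were seen, and the median over all 45 pairs of members was 0.64. Cpe was closest to Scg2 (0.81) and Scg3 (0.77), and Pcsk1 was unrelated to most members, from -0.13 to 0.47. The points share libraries of unequal depth and the close NL-shGFP pairs, so these are descriptions of 15 libraries that are not all independent. In NL-shGFP, replicates 1 and 2 both lay above replicates 3, 4 and 5 for 6 of the 10 members, with the lower of replicates 1 and 2 divided by the highest of replicates 3 to 5 at 2.46 for Chga, 1.77 for Chgb, 3.05 for Vgf, 2.50 for Resp18, 4.26 for Scg5 and 3.94 for Pcsk1n. The same held for 19.2% of tested genes, and the reverse for 18.9%.

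**Figure D4:**
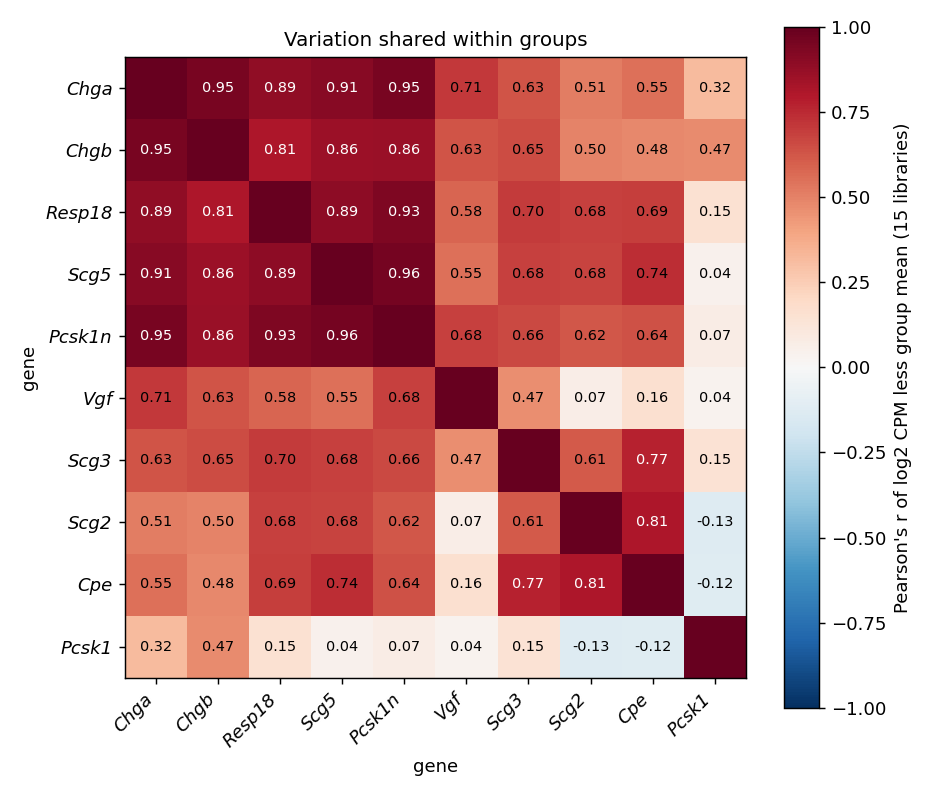
Pearson's r between each pair of the 10 genes over 15 libraries, from log2 CPM less its group mean, with red for positive and blue for negative values. The block of Chga, Chgb, Resp18, Scg5 and Pcsk1n has values of 0.81 or more, while the Pcsk1 row runs from -0.13 to 0.47.

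Among 11956 genes with at least 1 mean CPM, those whose within-group variation over the 15 libraries was most like each member were ranked by the same r. For Chga they were the peripheral myelin protein gene Pmp22 (0.97), the manganese transporter Slc30a10 (0.95) and Chgb (0.95), and for Chgb they were Slc30a10 (0.96), Selenbp1 (0.96) and Nlrp9b (0.95). Pcsk1n was matched by Scg5 (0.96), the magnesium channel Trpm6 (0.95) and Chga (0.95), and Scg5 by Irf2 (0.97), Trpm6 (0.97) and Tsc22d3 (0.96). Slc30a10 was thus close to both chromogranins, and Trpm6 to both Pcsk1n and Scg5. For Resp18 the closest were Pcsk1n (0.93), Flcn (0.92) and Ifi27 (0.91). For Cpe they were Rtf2 (0.96), the pore-forming protein gene Gsdmd (0.95) and Ly6e (0.94), and for Scg2 they were Gal3st2b (0.95), Cdc42ep3 (0.93) and Ceacam18 (0.93). Scg3 had Mdfic (0.94), Pard6b (0.90) and Zfand5 (0.89), and Pcsk1 had the proton pump subunit Atp6v0a4 (0.91), S100g (0.89) and Cmah (0.86). Vgf was below 1 CPM and was not ranked.

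Promoters are shown for the 3 members that hold the full cyclic AMP response element, TGACGTCA, and for Chga, which holds its core TGACG and TATAAA. Scg3 and Scg5 also hold the core but are not shown. Relative to the annotated start site, the core of Scg3 runs from -30 to -26 and that of Chga from -44 to -40. In Chga TATAAA lies after the annotated start, and the place of that start was not tested. RefSeq (GRCm38.p6) gave 300 bases, from 250 before to 50 after the start, for 8 of the 10 members, Cpe and Vgf having no entry in the table used. Capitals mark TGACGTCA, its core TGACG on either strand and, in Chga, TATAAA on the gene's strand. Chga is at chr12:102554691-102554990 on the plus strand, Chgb at chr2:132781392-132781691 on the plus strand, Scg2 at chr1:79439977-79440276 on the minus strand and Pcsk1 at chr13:75089607-75089906 on the plus strand, each written 5′ to 3′ along the gene.
Chga: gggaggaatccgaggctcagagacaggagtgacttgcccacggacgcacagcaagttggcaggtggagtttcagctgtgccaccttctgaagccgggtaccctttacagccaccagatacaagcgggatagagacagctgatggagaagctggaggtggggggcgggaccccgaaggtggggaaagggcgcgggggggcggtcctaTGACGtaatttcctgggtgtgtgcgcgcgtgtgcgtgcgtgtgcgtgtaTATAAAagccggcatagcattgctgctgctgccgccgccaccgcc
Chgb: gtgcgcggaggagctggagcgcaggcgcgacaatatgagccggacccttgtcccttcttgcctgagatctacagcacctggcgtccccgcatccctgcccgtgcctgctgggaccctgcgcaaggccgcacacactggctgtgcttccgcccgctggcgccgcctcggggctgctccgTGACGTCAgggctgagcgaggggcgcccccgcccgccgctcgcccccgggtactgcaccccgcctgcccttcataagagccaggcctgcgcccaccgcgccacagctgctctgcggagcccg
Scg2: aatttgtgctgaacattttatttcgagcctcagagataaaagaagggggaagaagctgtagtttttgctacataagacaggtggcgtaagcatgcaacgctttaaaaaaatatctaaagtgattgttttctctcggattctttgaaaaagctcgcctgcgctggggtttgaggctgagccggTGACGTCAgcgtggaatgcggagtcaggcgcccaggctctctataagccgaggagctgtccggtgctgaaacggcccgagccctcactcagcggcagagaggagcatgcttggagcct
Pcsk1: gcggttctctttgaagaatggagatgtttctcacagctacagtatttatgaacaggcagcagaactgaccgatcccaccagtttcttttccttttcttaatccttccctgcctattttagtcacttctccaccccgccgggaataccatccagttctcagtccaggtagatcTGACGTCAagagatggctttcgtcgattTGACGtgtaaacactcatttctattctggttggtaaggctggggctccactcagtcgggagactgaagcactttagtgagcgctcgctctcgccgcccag

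Counted with the start base as 0, TGACGTCA runs from -72 to -65 in Chgb, from -68 to -61 in Scg2 and from -78 to -71 in Pcsk1. It was in 3 of the 8 members and in 588 of 32851 promoters of the same length (1.79%). The core TGACG, which the full element also contains, was in 6 of 8 (with Chga at -44, Scg3 and Scg5 beside those 3) against 20.8% of all promoters. TATAAA was in 1 of 8, against 8.32%, and ran from 5 to 10 in Chga, after the annotated start. The E-box CAGATG, searched on both strands, was in none of the 8, against 17.2% of all promoters. Of the 3 genes with the full element Scg2 rose in FL-shGFP while Chgb and Pcsk1 did not pass.

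Other prohormone processing enzymes are read against the same backgrounds of 46.7%, 36.0% and 17.4%. Of 13 listed genes 11 were tested, and in FL-shGFP against NL-shGFP 6 rose and 1 fell, with a list median of 0.70. The 4 with the smallest p included the protease cathepsin L, Ctsl (1.68 ± 0.18, edgeR adjusted p = 1.29e-05), and the aminopeptidase Rnpep (-0.92 ± 0.12, edgeR adjusted p = 5.77e-05). They also included the constitutive convertase Furin (0.96 ± 0.13, edgeR adjusted p = 5.90e-05) and Pam, which amidates peptide ends (2.38 ± 0.31, edgeR adjusted p = 6.52e-05). In FL-shAlpl against FL-shGFP 2 rose and 5 fell, with a median of -0.50, led by Rnpep (0.74 ± 0.12, edgeR adjusted p = 0.000587), Furin (-0.70 ± 0.13, edgeR adjusted p = 0.00115), Pcsk7 (-0.50 ± 0.12, edgeR adjusted p = 0.00503) and Pcsk5 (-0.81 ± 0.20, edgeR adjusted p = 0.00628). In FL-shAlpl against NL-shGFP 3 rose and 0 fell: Pam (2.09 ± 0.31, edgeR adjusted p = 0.000568), Ctsl (1.06 ± 0.18, edgeR adjusted p = 0.00106) and the carboxypeptidase Cpd (0.45 ± 0.14, edgeR adjusted p = 0.0317).

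Pam acts after Cpe on many peptides that end in an amide. Pam averaged 42.3 ± 4.03 CPM (SD) in NL-shGFP, 220 ± 67.7 CPM in FL-shGFP and 180 ± 86.4 CPM in the FL-shAlpl libraries, and FL-shAlpl did not pass against FL-shGFP (-0.29 ± 0.30, edgeR adjusted p = 0.473). Cpe averaged 16.6 CPM in those same FL-shAlpl libraries. Cpd, the broadly expressed carboxypeptidase, averaged 299 ± 21.4, 509 ± 68.5 and 409 ± 79.2 CPM in the same order of groups, and its difference between FL-shAlpl and FL-shGFP did not pass (-0.31 ± 0.14, edgeR adjusted p = 0.0815). The difference between the responses of Cpe and of Pam or Cpd was not tested.

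**Figure D5:**
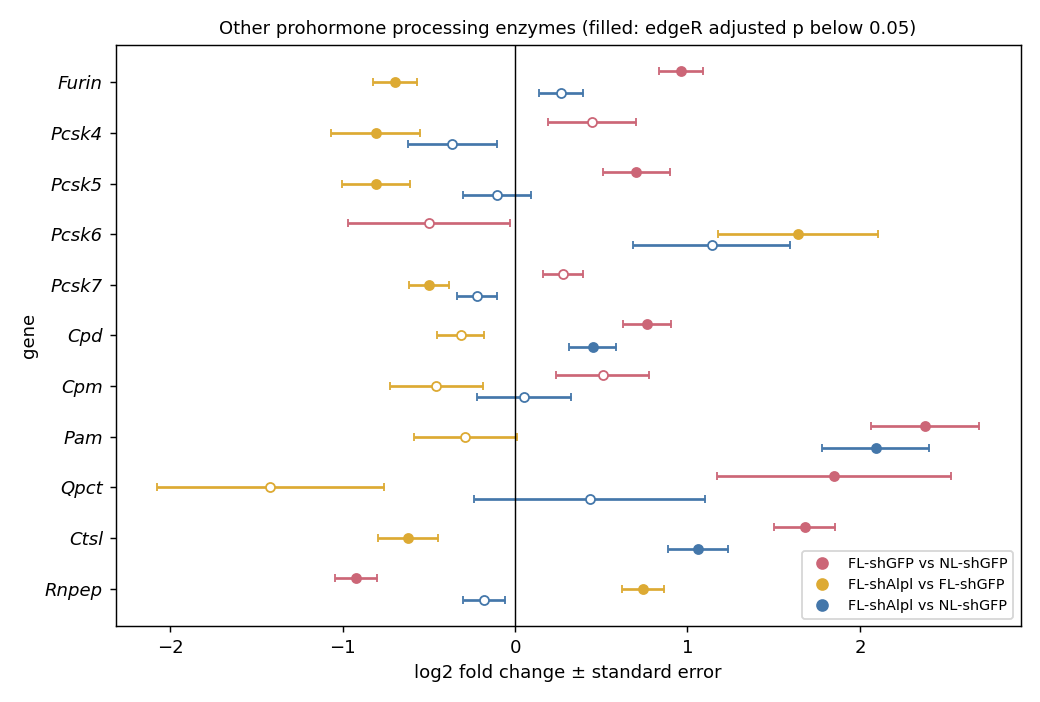
Log2 fold change ± standard error of the 11 tested genes among the other processing enzymes, with colours for the 3 comparisons and filled points for an edgeR adjusted p below 0.05. Pam lies far to the right in both comparisons with NL-shGFP, at 2.38 and 2.09, and Rnpep is lower in FL-shGFP (-0.92) and higher in FL-shAlpl against it (0.74).

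Of 30 listed genes of the granule membrane and of exocytosis 28 were tested, and 6 rose and 7 fell in FL-shGFP against NL-shGFP, with a median of 0.09, a count near the background of all tested genes (25.1% higher, 21.6% lower). They were led by the vesicle protein Sv2a (2.87 ± 0.52, edgeR adjusted p = 0.000536), Rab27a (0.79 ± 0.16, edgeR adjusted p = 0.000926), Hid1 (-0.63 ± 0.13, edgeR adjusted p = 0.00153) and the vesicle SNARE Vamp2 (0.51 ± 0.11, edgeR adjusted p = 0.00189). In FL-shAlpl against FL-shGFP 0 rose and 8 fell, with a median of -0.22, where 18.0% of all tested genes rose and 17.9% fell. They were led by Vamp2 (-0.67 ± 0.11, edgeR adjusted p = 0.000636), Rab27a (-0.80 ± 0.16, edgeR adjusted p = 0.00167), Sv2a (-2.27 ± 0.49, edgeR adjusted p = 0.00294) and the calcium sensor Syt7 (-0.64 ± 0.15, edgeR adjusted p = 0.00500). In FL-shAlpl against NL-shGFP 2 rose and 5 fell, with a median of -0.34, where 9.31% of all tested genes rose and 8.12% fell. Hid1, needed for granule formation, fell (-0.77 ± 0.13, edgeR adjusted p = 0.00139), as did the granule membrane protein Ptprn2 (-0.80 ± 0.16, edgeR adjusted p = 0.00328) and Syt7 (-0.58 ± 0.15, edgeR adjusted p = 0.0159), and Scamp5 rose (0.38 ± 0.10, edgeR adjusted p = 0.0164). With the close NL-shGFP pairs summed, 2 granule genes passed in that last comparison in place of 7.

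Of 10 tested gut hormone genes 5 rose and 1 fell in FL-shGFP against NL-shGFP, 0 rose and 3 fell in FL-shAlpl against FL-shGFP, and 2 rose and 2 fell in FL-shAlpl against NL-shGFP, beside 25.1% higher and 21.6% lower, 18.0% and 17.9%, and 9.31% and 8.12% of all tested genes. Of 16 transcription factors of the enteroendocrine lineage, 0 rose and 7 fell, 2 rose and 3 fell, and 0 rose and 9 fell in the same order, to be read against those same shares (46.7%, 36.0% and 17.4% in either direction).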

How the data were processed

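Per the submitters' processing notes, reads were aligned with HISAT2; its version, the counter, annotation, genome build and strand handling are not named there or in the labels. The authors deposited counts per gene, used for all tests, and FPKM, which equal counts divided by length and library total and were used for levels between genes. The 10 members and all lists were chosen with earlier results of these data known. Counts of the 17404 genes passing filterByExpr went into a single robust quasi-likelihood fit (edgeR 4.0.16 in R 4.3.3, TMM factors, 3 group means, 12 residual degrees of freedom). Tests were two-sided, with p-values adjusted by Benjamini-Hochberg over all of those genes and a threshold of 0.05. The common coefficient of variation between libraries was 30.2%, so spread more than depth limits most genes. CPM use TMM-scaled totals of tested genes. Within-group r used log2 CPM with a prior count of 2. Named genes were all members, the 3 closest genes by r for members above 1 CPM, and up to 4 passing list genes by p. Symbols matched 32241 of 32939 rows. Of the small counts (1 to 12), 72.4 to 77.2% per library were even. Alternatives were RLE factors, totals alone, 2 other filters, DESeq2 1.42.0, limma 3.58.1 on log2(FPKM + 1) and log2(FPKM + 0.1), 2 groups only, close libraries summed, a replicate block and each library left out. The code was tested on simulated counts, with equal numbers of genes changed 2-fold and 4-fold in FL-shGFP. Against NL-shGFP 45 of the 2-fold and 98 of the 4-fold changes were called. In FL-shAlpl against FL-shGFP 41 and 97 were called, so most 2-fold changes were missed. Figures used Python 3.11.15 and matplotlib 3.10.9.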

Additional observations from a re-analysis of the deposited data

Results flagged for a closer look

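Vgf in FL-shGFP replicate 4 stood apart from the other 4 libraries of its group, at 1.07 CPM against at most 0.504 CPM, with its gap to the nearest library exceeding Dixon's 95% critical value. Such a test over 30 groups of 5 libraries (10 genes in 3 groups) flags about 1 in 20 by chance.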

How the results depend on the processing

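Cpe kept its direction and its calls in FL-shGFP against NL-shGFP and in FL-shAlpl against FL-shGFP under every alternative run, and Scg2 did so in FL-shGFP against NL-shGFP. With each library left out, Cpe ranged from 2.71 to 3.15 and from -2.77 to -2.33, and Scg2 from 2.28 to 2.96. In FL-shAlpl against FL-shGFP the 2 called members became 1, with Vgf lost or not tested, under totals alone, no low-count filter, 1 CPM in 5 samples, both limma settings and the replicate block, and ranged from 1 to 2 with a library left out. In FL-shAlpl against NL-shGFP the 0 called members became 1 under totals alone, 1 with only the 2 groups fitted, 1 with the replicate block (Pcsk1, -0.84, edgeR adjusted p = 0.0317), 2 under DESeq2 and 0 to 1 with a library left out. Scg5 in FL-shGFP against NL-shGFP passed limma on log2(FPKM + 0.1), at 1.25. Values that changed sign were all small and not called. Chga in FL-shGFP against NL-shGFP was 0.12 under log2(FPKM + 1), 0.12 under log2(FPKM + 0.1) and 0.00033 with close pairs summed, and Pcsk1n was 0.014 and 0.14 under the 2 limma settings. In FL-shAlpl against NL-shGFP, Scg3 was 0.082 under totals alone, 0.029 and 0.083 under limma, 0.053 with close pairs summed and 0.018 with the block, and Resp18 was 0.049, 0.12, 0.20, 0.085 and 0.052. With a library left out, in FL-shGFP against NL-shGFP Chga ranged from -0.36 to 0.17, Pcsk1n from -0.46 to 0.23, Vgf from -0.036 to 0.70 and Resp18 from -0.023 to 0.52. Chgb in FL-shAlpl against FL-shGFP ranged from -0.23 to 0.029, and in FL-shAlpl against NL-shGFP Scg3 ranged from -0.20 to 0.073 and Resp18 from -0.32 to 0.20. In that last comparison all called genes went from 3035 to 1340 with close pairs summed and ranged from 1979 (without FL-shAlpl replicate 2) to 3523 with a library left out, and granule genes went from 7 to 2 and ranged from 4 to 6. The cause of these changes was not tested, apart from fewer samples or genes tested where an alternative removes them. Totals alone raised the share of higher calls from 53.8 to 65.8% in FL-shGFP against NL-shGFP and from 53.4 to 74.95% in FL-shAlpl against NL-shGFP, where it moved the median of all genes by 0.14. The 15 pairs of same-numbered libraries correlated between -0.35 and 0.33, 3 of them above 0.1, and 6 of 15 libraries correlated best with their own number. These few correlations cannot settle whether replicate numbers pair the samples. The main fit therefore had no pairing, and the replicate block was run as an alternative. No 2 libraries met the criterion for summing, so keeping all 15 separate was the analysis reported. Members under 1 CPM rest on few counts.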
